A study of Mus musculus with 12 samples.

Results

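The 45 genes described here work from the end of G2 to the cutting of one cell into a pair, and were chosen by name as G2/M, kinetochore and spindle genes. All 45 were found by Ensembl identifier among the 55487 genes of the count table, and all 45 were among the 14509 genes with enough counts to be tested. They fall into 7 groups by role. The first holds the proliferation marker Mki67, the DNA topoisomerase Top2a and the transcription factor Foxm1. The second is the entry switch of mitosis, with the kinase Cdk1, the cyclins Ccnb1, Ccnb2, Ccna2 and Ccnf and the phosphatases Cdc25b and Cdc25c. The third holds the spindle assembly genes Plk1, Aurka, Tpx2, Kif11, Kif2c, Kif4, Hmmr, Nusap1 and Aspm. The chromosomal passenger complex (Aurkb, Birc5, Incenp, Cdca8) is the fourth, and the kinetochore and centromere genes (Cenpa, Cenpe, Cenpf, Ndc80, Nuf2, Spc25, Knstrn) are the fifth. The sixth holds the spindle checkpoint and the control of the anaphase-promoting complex (Bub1, Bub1b, Bub3, Mad2l1, Ttk, Cdc20, Ube2c, Pttg1), and the last the central spindle and cytokinesis (Kif20a, Kif20b, Kif23, Prc1, Anln, Ect2, Racgap1).

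RNA was sequenced from SCC7, a mouse squamous carcinoma cell line whose genotype label is WT, after 24 h in medium conditioned by bone-marrow-derived macrophages (BMDM). The macrophages had first been kept for 24 h in control medium (M0 CM), in IFN-γ at 20 ng/ml (M1 CM), in IL-4 at 20 ng/ml (M2 CM) or in 75% SCC7-conditioned medium (TAM CM, a name the labels leave unexplained). There are 4 groups with 3 libraries in each, and SCC7 cells without macrophage medium were not analysed here. All results are thus from 1 cell line, TAM CM comes from cultured BMDM and not from macrophages taken out of a tumour, and whether cytokine or SCC7 medium was left in the conditioned medium is not stated in the labels. No label says whether the 3 libraries of a medium come from separate cultures. Each p-value therefore measures spread between libraries only, and that spread may be technical.

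Library totals ran from 18996937 to 22596630 counts, and the biological coefficient of variation of the fit was 3.65%. The cell type label of M2 CM replicate 3 names a melanoma where the other 11 libraries name a squamous carcinoma. In that library, as in the others, 7 of 8 melanocyte markers were under 1 CPM (counts scaled to the library total), and the median member lay at −0.014 on the log2 scale against the M0 CM mean, beside 0.007 and 0.030 in M2 CM replicates 1 and 2. It was kept in M2 CM, and counts without it are given beside the M2 CM results. Of 12 epithelial markers, Krt5, Krt14, Krt6a, Krt17, Dsg3, Epcam and Cdh1 were under 1 CPM in all 12 libraries, so the squamous label rests on few of its defining transcripts here, while the simple keratins Krt8 and Krt18 averaged 267 and 105 CPM in M0 CM.

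A dividing cell makes most of these transcripts only from S phase onward, with a peak in G2 and mitosis, and breaks down many of the proteins at mitotic exit. Cdk1 bound to cyclin B drives entry, the Aurora and Polo-like kinases build the spindle, the kinetochore ties chromosomes to microtubules, and the checkpoint holds back Cdc20 and the anaphase-promoting complex until all are attached. A tumour line in culture holds a mixture of cells in all phases. In bulk RNA, fewer cells in G2 and mitosis and less of each RNA per cell cannot be told apart.

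The promoters of such genes commonly carry a cell cycle homology region, with the letters TTTGAA or TTCGAA, which is bound by the MuvB core of the DREAM and B-Myb complexes, next to CCAAT boxes bound by NF-Y. Both motifs were searched on both strands in the RefSeq windows (GRCm38.p6) that run from 250 bases before to 50 bases after each start, and 1 pair of matches in the member windows overlapped. There were 41 windows for 38 of the 45 members, the exceptions being Foxm1, Ccna2, Cdc25c, Tpx2, Aurkb, Incenp and Kif20a. The cell cycle homology region was in 33 of the 41 windows (80.5%), against 19.2% of all 32851 windows and 14.2% of the 12739 windows of tested genes. CCAAT was in 75.6% of the member windows, against 37.4% of all windows, and both elements were in 70.7%, against 7.52%. The 4 stretches that follow come from members whose levels are described later. They were picked for a homology region match before the start, so they do not show where matches usually lie. Over all member windows, 22 homology region matches began before the start and 23 after it. Each is the 150 bases before the start, 5′ to 3′ on the strand of the gene, with the matches to either motif in capitals (ATTGG and TTCAAA are the matches read on the other strand).

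Mki67 (chr7:135716380-135716529, minus strand): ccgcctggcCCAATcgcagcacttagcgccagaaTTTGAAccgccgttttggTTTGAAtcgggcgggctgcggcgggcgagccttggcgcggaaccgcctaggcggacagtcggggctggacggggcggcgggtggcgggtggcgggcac
Top2a (chr11:99024190-99024339, minus strand): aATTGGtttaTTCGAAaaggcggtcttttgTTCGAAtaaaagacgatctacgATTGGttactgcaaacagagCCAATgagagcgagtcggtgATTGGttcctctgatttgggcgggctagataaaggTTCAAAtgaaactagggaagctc
Cdk1 (chr10:69352913-69353062, minus strand): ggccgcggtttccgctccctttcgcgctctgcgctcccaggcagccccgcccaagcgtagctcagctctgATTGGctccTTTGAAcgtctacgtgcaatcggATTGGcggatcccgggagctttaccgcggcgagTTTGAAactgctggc
Kif11 (chr19:37376232-37376381, plus strand): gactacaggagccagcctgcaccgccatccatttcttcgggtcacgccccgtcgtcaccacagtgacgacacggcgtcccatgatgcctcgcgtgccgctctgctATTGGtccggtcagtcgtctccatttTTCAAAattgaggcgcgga

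In the Mki67 stretch 1 CCAAT box and 2 TTTGAA matches lay close together, with first bases at −141, −116 and −98 from the start. The Top2a stretch held 4 CCAAT boxes, on either strand, and 3 homology regions, 2 of them in the TTCGAA form. In Cdk1 a TTTGAA at −71 came right after a CCAAT box at −80, and another lay at −15. Kif11, the motor that pushes the spindle poles apart, had 1 of each. Over all member windows, 31 of 45 homology region matches began between −40 and 41 and 70 of 72 CCAAT matches before the start. A match is a run of letters and not a bound site.

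**Figure D1:**
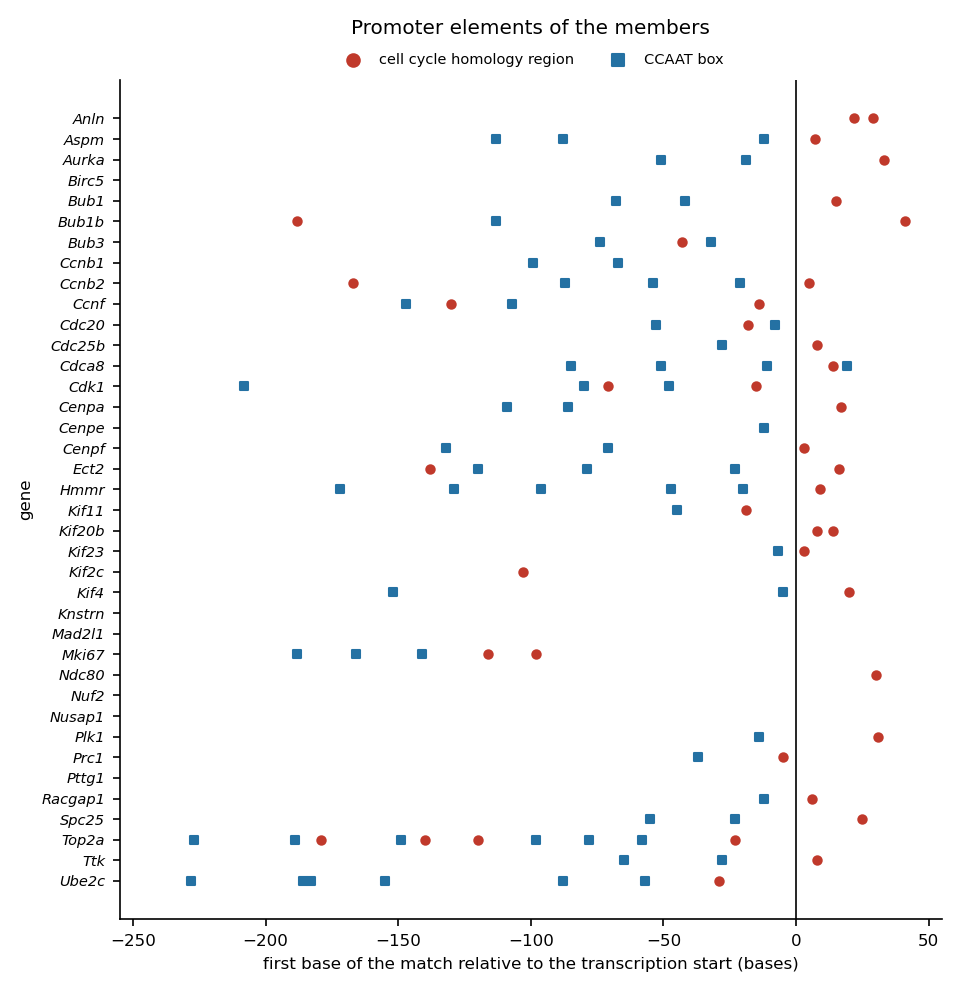
Promoter elements of the 38 members with a RefSeq window (first window per gene), by the first base of each match relative to the transcription start on the x axis in bases; circles are TTTGAA or TTCGAA, squares are CCAAT, on either strand. CCAAT boxes lie mostly before the start and homology regions mostly around it, and 8 members show no circle.

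Against M0 CM nearly all members were lower in M1 CM, all were lower in TAM CM and most of them further, and in M2 CM the changes were small and went both ways. All tests are edgeR's quasi-likelihood test with Benjamini-Hochberg adjustment over the 14509 genes, and a gene is said to have risen or fallen where its adjusted p was under 0.05. In M1 CM 44 of 45 members fell and none rose, and their median was −0.36 on the log2 scale. Of all genes tested, 25.6% fell in that comparison and 27.7% rose, around a median of 0.012. In TAM CM all 45 fell, with a median of −1.04, where 34.9% of all genes fell and 35.1% rose around a median of 0.001. In M2 CM 10 members rose and 8 fell, with a median of 0.002, beside 21.0% and 18.5% of all genes, so that the share of members called was close to that of genes at large. All 3 comparisons used the same 3 M0 CM libraries, so these fold changes share their control.

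The size of the change set M1 CM and TAM CM apart. A fall of at least 1.5-fold was seen for 5 members in M1 CM (6.35% of all genes) and for 39 in TAM CM (18.3%), and a fall of at least 2-fold for none and for 23 (2.68% and 9.93% of all genes). No member changed by 1.5-fold in M2 CM, where 2.78% of all genes rose and 4.57% fell by that much. The 3 libraries of M1 CM lay wholly below those of M0 CM for 44 members (28.6% of all genes) and wholly above for Pttg1 (30.2%), and those of TAM CM lay below for 45 (36.4%). In M2 CM they lay wholly above for 14 members, wholly below for 15 and overlapped for 16 (25.6% of all genes above and 23.9% below).

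Single libraries told the same. Against the M0 CM mean, the median member stood at −0.007, 0.011 and 0 in the M0 CM libraries and at −0.355, −0.391 and −0.389 in M1 CM. TAM CM gave −1.03, −1.02 and −1.07. The members together took 0.935%, 0.944% and 0.938% of all counts in M0 CM, 0.685%, 0.671% and 0.672% in M1 CM, 0.896%, 0.902% and 0.900% in M2 CM and 0.431%, 0.447% and 0.436% in TAM CM. The spread within each medium was thus small beside the steps between M0 CM, M1 CM and TAM CM.

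**Figure D2:**
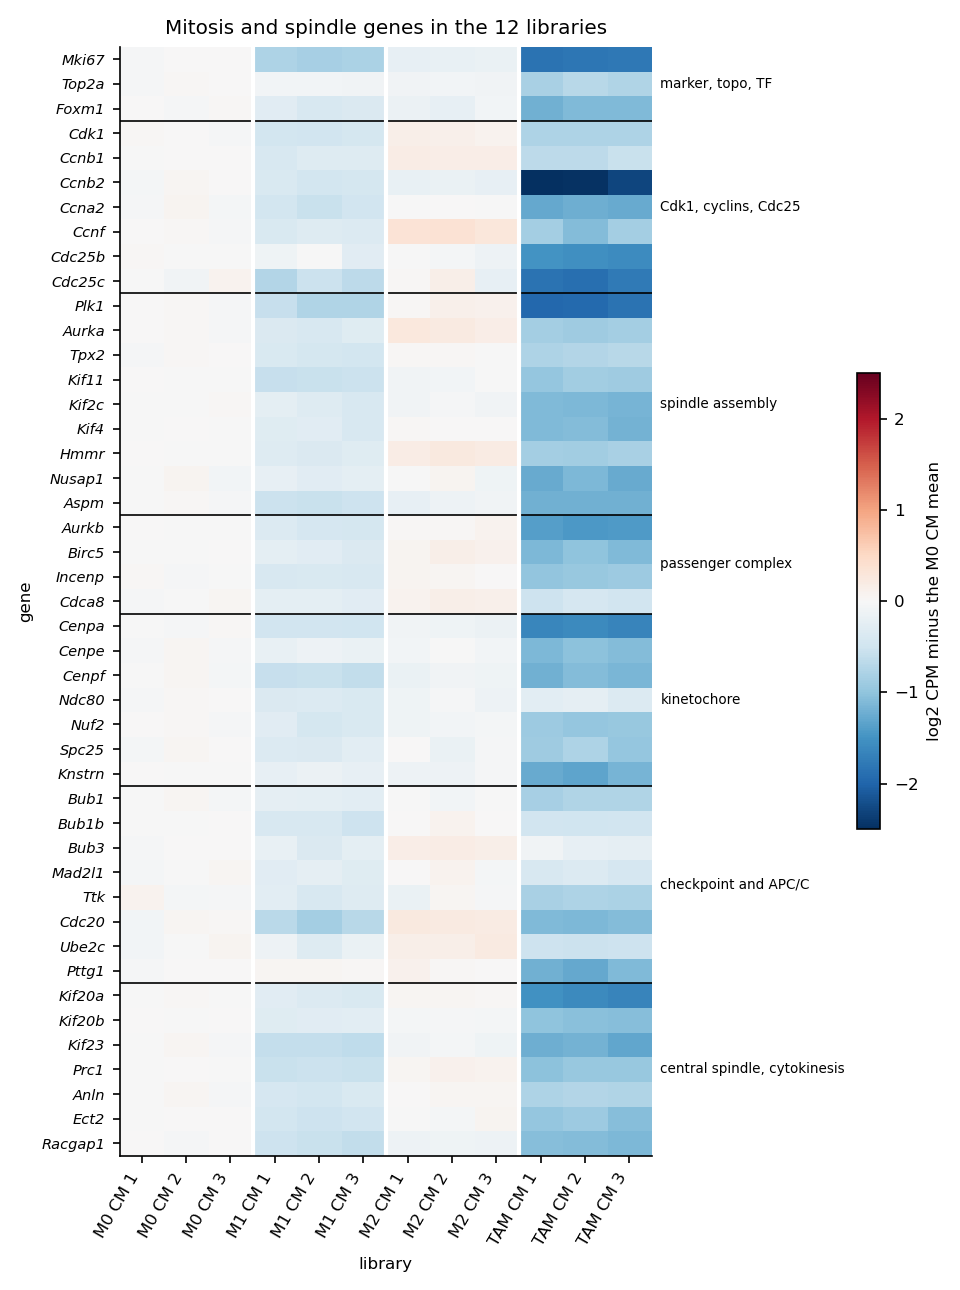
Heat map of the 45 members (y axis, grouped by role) in the 12 libraries (x axis), coloured by log2 CPM minus the M0 CM mean, blue for lower and red for higher. The M1 CM columns are pale blue with Mki67, Plk1 and Cdc20 darkest, the M2 CM columns are close to white with Ccnf among the reddest, and the TAM CM columns are blue throughout with Ccnb2 darkest.

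Without M2 CM replicate 3, 10 members rose and 8 fell in M2 CM against M0 CM, the same numbers as with it. The members called were not all the same, since Top2a lost its call and Knstrn was called lower. The scaling of the libraries mattered more. With plain library totals and no scaling factors, 7 members rose and 17 fell in M2 CM, and their median went from 0.002 to −0.054, beside a shift of the median of all genes from −0.003 to −0.059. Over all genes, the split in M2 CM went from 3042 higher and 2681 lower to 2201 and 3653, and in M1 CM from 4023 and 3719 to 3219 and 4626. The counts of members that fell in M1 CM and TAM CM stayed at 44 and 45.

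The summed levels of several marker lists differed between the media. The summed level of 15 macrophage genes ran from 22.8 to 24.0 CPM in M0 CM, 33.7 to 40.1 in M1 CM, 22.6 to 25.1 in M2 CM and 41 to 50.6 in TAM CM. That sum is carried by Cd14 (17.3 CPM in M0 CM, 40.9 in TAM CM) and Cd68, since 11 of the 15 genes, Csf1r, Ptprc, Adgre1 and Itgam among them, were under 1 CPM in every library and C1qa, C1qb, C1qc and Tyrobp were at 0. The sum of the 12 epithelial genes, nearly all of it Krt8 and Krt18, ran from 359 to 390 CPM in M0 CM, 173 to 177 in M1 CM, 680 to 758 in M2 CM and 91.1 to 101 in TAM CM. The 8 fibroblast genes summed to 2505 to 2651, 1444 to 1542, 1471 to 1496 and 1148 to 1203 CPM in the same order. Most of that sum is Col1a2 (1475 CPM in M0 CM), Col1a1 and Col3a1, which fell with Pdgfrb in M1 CM and TAM CM. Dcn rose by 2.14 and 2.57 and Pdgfra by 0.153 and 0.435 in M1 CM and TAM CM, and Lum and Thy1 were at 0. The 8 melanocyte genes, nearly all of it Mitf, summed to 7.21 to 9.31, 9.81 to 13.0, 5.57 to 7.34 and 11 to 12.8 CPM. The part of these lists in the results on mitotic genes was not tested.

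Mki67, whose protein coats mitotic chromosomes, fell in all 3 media. Its gene lies on the minus strand of chromosome 7, at 135689784 to 135716361 (mm10). Its levels were 861, 888 and 882 CPM in M0 CM, 516, 490 and 506 in M1 CM, 764, 770 and 784 in M2 CM and 244, 252 and 256 in TAM CM, so that no 2 media overlapped. The log2 fold changes against M0 CM were −0.80 ± 0.030 (standard error, adjusted p = 3.27e-28) in M1 CM, the largest fall of any member there, −0.18 ± 0.030 (adjusted p = 1.39e-06) in M2 CM and −1.81 ± 0.031 (adjusted p = 1.59e-42) in TAM CM.

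Top2a, the topoisomerase that untangles sister chromatids, did not follow Mki67 in M1 CM. It was at 796, 820 and 810 CPM in M0 CM, 767, 776 and 759 in M1 CM, 760, 774 and 759 in M2 CM and 463, 503 and 479 in TAM CM. The groups did not overlap with M0 CM, yet the changes in M1 CM (−0.076 ± 0.030, adjusted p = 0.0298) and M2 CM (−0.082 ± 0.030, adjusted p = 0.0249) were among the smallest called. Each was lost with several single libraries left out, with adjusted p from 0.0594 to 0.105 in M1 CM without M0 CM replicate 2 or 3 or M1 CM replicate 1 or 3, and from 0.0539 to 0.0752 in M2 CM without M0 CM replicate 2 or 3 or M2 CM replicate 1 or 3. In TAM CM Top2a fell by 0.75 (SE 0.030, adjusted p = 3.43e-27).

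Foxm1, the forkhead factor that switches on many of the other members, was at 215, 212 and 218 CPM in M0 CM, 177, 164 and 166 in M1 CM, 194, 187 and 205 in M2 CM and 93.2, 99.9 and 101 in TAM CM. It fell by 0.35 in M1 CM (adjusted p = 2.15e-11), by 0.14 in M2 CM (adjusted p = 0.00194) and by 1.14 in TAM CM (adjusted p = 2.99e-30). All 3 genes of this role thus fell in all 3 media.

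Of the entry switch, all 7 genes fell in M1 CM (median −0.42) and in TAM CM (median −1.26), and in M2 CM 3 rose and 1 fell. Cdk1, the kinase itself, was at 286, 280 and 272 CPM in M0 CM, 203, 201 and 207 in M1 CM, 309, 305 and 296 in M2 CM and 163, 164 and 163 in TAM CM. It fell by 0.46 in M1 CM (SE 0.032, adjusted p = 3.01e-17) and by 0.77 in TAM CM (SE 0.033, adjusted p = 2.52e-26), and was 0.12 higher in M2 CM (SE 0.032, adjusted p = 0.00187; adjusted p = 0.0964 without scaling factors).

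Both B-type cyclins are partners of Cdk1, and they parted company. Ccnb1 was at 197, 200 and 199 CPM in M0 CM, 150, 158 and 158 in M1 CM, 227, 223 and 222 in M2 CM and 127, 126 and 135 in TAM CM. Ccnb2, on chromosome 9 at 70407692 to 70421547 on the minus strand, was at 128, 136 and 133 CPM in M0 CM, 102, 96.6 and 97.8 in M1 CM, 116, 118 and 114 in M2 CM and 22.3, 23.9 and 26.8 in TAM CM. In M2 CM Ccnb1 rose (0.17 ± 0.034, adjusted p = 4.46e-05) and Ccnb2 fell (−0.19 ± 0.041, adjusted p = 0.000171). In TAM CM Ccnb2 had the largest fall of the 45, by 2.44 (SE 0.050, adjusted p = 1.11e-39), to 18.4% of its M0 CM level, where Ccnb1 fell by 0.62 (SE 0.035, adjusted p = 2.57e-21) to 65.1%.

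Ccna2, the cyclin A of S phase and G2, was at 293, 312 and 290 CPM in M0 CM, 217, 204 and 215 in M1 CM, 296, 299 and 296 in M2 CM and 122, 127 and 125 in TAM CM. It fell by 0.49 in M1 CM and by 1.26 in TAM CM, and in M2 CM it lay within the M0 CM range (−0.006, adjusted p = 0.910). Ccnf, the F-box cyclin of a ubiquitin ligase, was at 99.5, 101 and 97.9 CPM in M0 CM, 76.8, 79.9 and 78.2 in M1 CM, 127, 128 and 122 in M2 CM and 55, 47 and 55 in TAM CM. Its rise of 0.33 in M2 CM (SE 0.043, adjusted p = 8.35e-09) was the largest of any member in that medium, and it fell by 0.35 in M1 CM and by 0.93 in TAM CM.

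The Cdc25 phosphatases take the inhibiting phosphates off Cdk1. Cdc25b was at 115, 113 and 112 CPM in M0 CM, 105, 112 and 92.9 in M1 CM, 112, 109 and 104 in M2 CM and 40.0, 38.9 and 37.8 in TAM CM. Its fall in M1 CM (−0.14 ± 0.046, adjusted p = 0.0110) rested on M1 CM replicate 3, without which it was −0.067 (adjusted p = 0.211). In TAM CM Cdc25b fell by 1.54 (SE 0.051, adjusted p = 1.08e-27). Cdc25c, the lowest member per exon length, fell by 0.64 in M1 CM and by 1.85 in TAM CM (adjusted p = 2.35e-24) and was at 0.002 in M2 CM (adjusted p = 0.988).

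**Figure D3:**
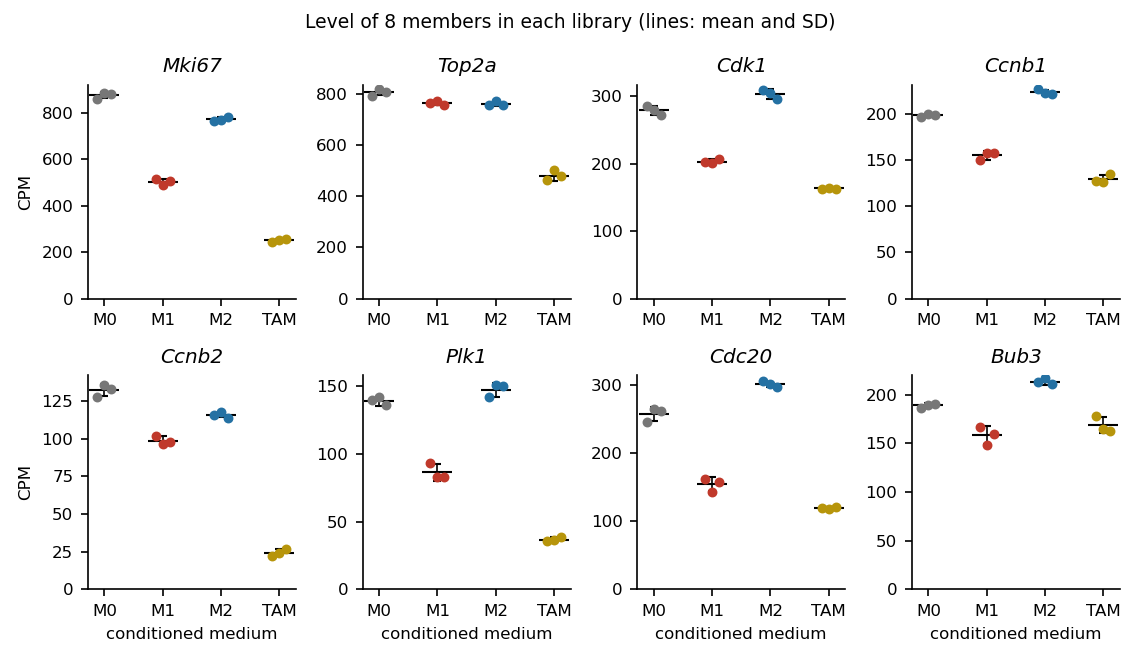
Level in CPM (y axis, from 0) of 8 members in each of the 3 libraries of every medium (x axis), with lines for the mean and SD. Ccnb2 and Plk1 drop to 18.4% and 26.4% of the M0 CM level in TAM CM, Ccnb1, Cdk1, Cdc20 and Bub3 sit above M0 CM in M2 CM, and Bub3 stays within 163 to 217 CPM outside M1 CM.

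All 9 spindle assembly genes fell in M1 CM (median −0.35) and in TAM CM (median −1.12). Plk1, the Polo-like kinase of centrosome maturation and mitotic entry, lies on the plus strand of chromosome 7 at 122159439 to 122169873. It was at 140, 142 and 136 CPM in M0 CM, 93.5, 83.0 and 82.7 in M1 CM, 142, 151 and 150 in M2 CM and 35.5, 36.1 and 38.4 in TAM CM. It fell by 0.69 in M1 CM (SE 0.042, adjusted p = 2.01e-19) and by 1.92 in TAM CM (SE 0.047, adjusted p = 3.22e-36), second only to Ccnb2 there. In M2 CM its libraries overlapped those of M0 CM (0.084, adjusted p = 0.0976).

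Aurka, the Aurora kinase of the spindle poles, was at 104, 106 and 102 CPM in M0 CM, 81.4, 78.9 and 84.3 in M1 CM, 126, 121 and 117 in M2 CM and 57.9, 56.2 and 57.8 in TAM CM. It fell by 0.35 in M1 CM and by 0.86 in TAM CM, and rose by 0.22 in M2 CM (SE 0.039, adjusted p = 7.31e-06). Its activator Tpx2 fell by 0.42 in M1 CM and by 0.74 in TAM CM and was at 0.018 in M2 CM (adjusted p = 0.696). Hmmr, a microtubule-binding partner of the Aurora A pathway, fell by 0.33 in M1 CM and by 0.84 in TAM CM and rose by 0.21 in M2 CM (adjusted p = 1.75e-06).

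Kif11 was at 189, 187 and 188 CPM in M0 CM, 126, 128 and 129 in M1 CM, 176, 179 and 185 in M2 CM and 96.7, 102 and 101 in TAM CM. All its M2 CM libraries lay below M0 CM, but the difference was not called (−0.058, adjusted p = 0.178), and it fell by 0.56 in M1 CM and by 0.91 in TAM CM. The microtubule depolymerase Kif2c and the chromokinesin Kif4 fell by 0.33 each in M1 CM and by 1.13 and 1.12 in TAM CM, with −0.072 and 0.016 in M2 CM, neither called. Nusap1, which bundles spindle fibres, fell by 0.24 in M1 CM and by 1.22 in TAM CM and was at −0.013 in M2 CM. Aspm, the pole protein whose loss causes a small brain, fell in all 3 media, by 0.53, 0.14 (adjusted p = 0.00172) and 1.21 in M1 CM, M2 CM and TAM CM.

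The 4 genes of the chromosomal passenger complex, which corrects faulty attachments and later marks the site of cleavage, fell in M1 CM (median −0.35) and TAM CM (median −1.01). Its kinase Aurkb was at 111, 110 and 110 CPM in M0 CM, 86.7, 82.1 and 80.9 in M1 CM, 113, 113 and 118 in M2 CM and 42.6, 40.9 and 41.3 in TAM CM. It fell by 0.41 and by 1.41 (adjusted p = 3.94e-32) in M1 CM and TAM CM, and its 0.053 in M2 CM was not called (adjusted p = 0.297) although the libraries did not overlap. Birc5, or survivin, was at 174, 173 and 175 CPM in M0 CM, 146, 143 and 136 in M1 CM, 183, 194 and 188 in M2 CM and 80.2, 86.5 and 81.3 in TAM CM. It fell by 0.30 and by 1.07, and rose by 0.11 in M2 CM (adjusted p = 0.00906), a call lost without scaling factors (adjusted p = 0.208) or without M2 CM replicate 2 (adjusted p = 0.0830).

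The other members of the complex differed in how far they went, though Cdca8 can share reads with a gene on the other strand, as described below. Cdca8, or borealin, fell by 0.26 in M1 CM and by only 0.47 in TAM CM, and its rise of 0.12 in M2 CM (adjusted p = 0.00974) was lost without scaling factors (adjusted p = 0.184), without M0 CM replicate 1 (adjusted p = 0.0576) or without M2 CM replicate 2 (adjusted p = 0.0586). The scaffold Incenp fell by 0.40 and by 0.95 and was at 0.041 in M2 CM (adjusted p = 0.346).

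All 7 kinetochore and centromere genes fell in M1 CM (median −0.36) and TAM CM (median −1.08), and in M2 CM all 7 had a fold change below 0 with 2 called. Cenpe, the motor that carries chromosomes to the spindle equator, was at 234, 246 and 234 CPM in M0 CM, 210, 217 and 213 in M1 CM, 227, 236 and 227 in M2 CM and 108, 117 and 112 in TAM CM. Its fall in M1 CM was small (−0.16 ± 0.034, adjusted p = 8.67e-05) and that in TAM CM was 1.08. Cenpf, a large protein of the outer kinetochore, was at 249, 258 and 243 CPM in M0 CM, 168, 169 and 163 in M1 CM, 224, 234 and 231 in M2 CM and 108, 117 and 112 in TAM CM. It fell by 0.58 in M1 CM (adjusted p = 5.07e-20), by 0.12 in M2 CM (adjusted p = 0.00343; adjusted p = 0.0995 with the trend on transcript length taken out) and by 1.15 in TAM CM. The falls of these 2 large proteins' genes were alike in TAM CM but not in M1 CM.

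Cenpa, the histone H3 variant that marks centromeres, fell by 0.48 in M1 CM, by 0.11 in M2 CM (adjusted p = 0.00906; adjusted p = 0.0540 without M0 CM replicate 3) and by 1.63 in TAM CM (adjusted p = 5.09e-37). The NDC80 complex grips microtubules, and 3 of its subunits are members. Nuf2 and Spc25 fell by 0.37 and 0.32 in M1 CM and by 0.94 and 0.87 in TAM CM. Ndc80 itself fell by 0.36 in M1 CM and by only 0.27 in TAM CM (adjusted p = 1.1e-06), with 69.4, 71.5 and 70.5 CPM in M0 CM, 54.8, 55.5 and 53.8 in M1 CM, 65.2, 69.1 and 64.3 in M2 CM and 58.5, 60.7 and 55.8 in TAM CM. In M2 CM Ndc80, Nuf2 and Spc25 were at −0.090, −0.078 and −0.056, with adjusted p of 0.116, 0.150 and 0.488. Knstrn, or kinastrin, fell by 0.19 and by 1.25 and was at −0.098 in M2 CM (adjusted p = 0.0621; 0.0209 without M2 CM replicate 3).

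The genes of the checkpoint and of the anaphase-promoting complex had the smallest falls in both media, with medians of −0.27 in M1 CM and −0.65 in TAM CM. Cdc20, which activates the complex at anaphase, had the largest fall of this role in M1 CM, and Pttg1 and Cdc20 had the largest in TAM CM. Cdc20 lies on the minus strand of chromosome 4 at 118432901 to 118437352. Its levels were 245, 264 and 262 CPM in M0 CM, 161, 143 and 158 in M1 CM, 305, 301 and 297 in M2 CM and 119, 118 and 121 in TAM CM. It fell by 0.74 in M1 CM (SE 0.037, adjusted p = 1.16e-22), rose by 0.23 in M2 CM (SE 0.036, adjusted p = 9.21e-07) and fell by 1.10 in TAM CM.

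The checkpoint kinase Bub1 was at 126, 132 and 122 CPM in M0 CM, 108, 106 and 105 in M1 CM, 126, 121 and 125 in M2 CM and 71.2, 75.2 and 75.0 in TAM CM. It fell by 0.25 and by 0.78, and its M2 CM libraries overlapped those of M0 CM (−0.027, adjusted p = 0.607). The kinase Ttk, or Mps1, fell by 0.33 and by 0.80 and was at −0.050 in M2 CM. The inhibitors of Cdc20 moved less in TAM CM. Bub1b, or BubR1, fell by 0.43 in M1 CM and by 0.49 in TAM CM, and Mad2l1, or Mad2, by 0.27 and by 0.39, with 0.034 and 0.021 in M2 CM, neither called. Bub3, which also lies on chromosome 7 (131560222 to 131571895, plus strand), was at 187, 190 and 191 CPM in M0 CM, 167, 148 and 160 in M1 CM, 213, 217 and 211 in M2 CM and 178, 165 and 163 in TAM CM. Its fall of 0.17 in TAM CM (SE 0.038, adjusted p = 8.95e-05) was the smallest of the 45, it fell by 0.26 in M1 CM, and it rose by 0.17 in M2 CM (adjusted p = 0.000173).

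Ube2c, the ubiquitin-conjugating enzyme of the complex, fell by 0.20 in M1 CM, rose by 0.18 in M2 CM (adjusted p = 0.000395) and fell by 0.52 in TAM CM. Pttg1, or securin, the substrate that keeps sister chromatids together, was the 1 member that did not fall in M1 CM. It was at 60, 61.3 and 61.3 CPM in M0 CM, 63.1, 62.6 and 62.0 in M1 CM, 65.2, 62.1 and 61.5 in M2 CM and 26.5, 25 and 28.3 in TAM CM. In M1 CM and M2 CM it lay at 0.040 and 0.049 (adjusted p = 0.515 and 0.451), and in TAM CM it fell by 1.20 (SE 0.054, adjusted p = 1.88e-25).

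Of the central spindle and cytokinesis genes all 7 fell in M1 CM, with the lowest median of any role there (−0.48), and in TAM CM (median −1.04). Ect2, the exchange factor that switches on RhoA at the cleavage site, was at 161, 162 and 162 CPM in M0 CM, 117, 113 and 116 in M1 CM, 161, 157 and 170 in M2 CM and 82.3, 85.7 and 77.1 in TAM CM. It fell by 0.48 (adjusted p = 9.78e-16) and by 0.98, and was at 0.012 in M2 CM. Its partners of the centralspindlin complex, Racgap1 and the motor Kif23, fell by 0.56 and 0.60 in M1 CM and by 1.10 and 1.24 in TAM CM, and in M2 CM Racgap1 fell by 0.12 (adjusted p = 0.00171) while Kif23 was at −0.083 (adjusted p = 0.0776).

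Kif20b was at 126, 124 and 126 CPM in M0 CM, 102, 103 and 105 in M1 CM, 121, 123 and 122 in M2 CM and 62.3, 60.4 and 59.8 in TAM CM. This late mitotic motor fell by 0.28 and by 1.04 and was at −0.040 in M2 CM (adjusted p = 0.416). Kif20a, the related motor that brings the passenger complex to the midzone, fell by 0.34 in M1 CM and by 1.58 in TAM CM and was at 0.044 in M2 CM. The microtubule bundler Prc1 fell by 0.55 and by 0.97 and the ring scaffold Anln, or anillin, by 0.42 and by 0.75, with 0.080 (adjusted p = 0.0626) and 0.036 in M2 CM.

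**Figure D4:**
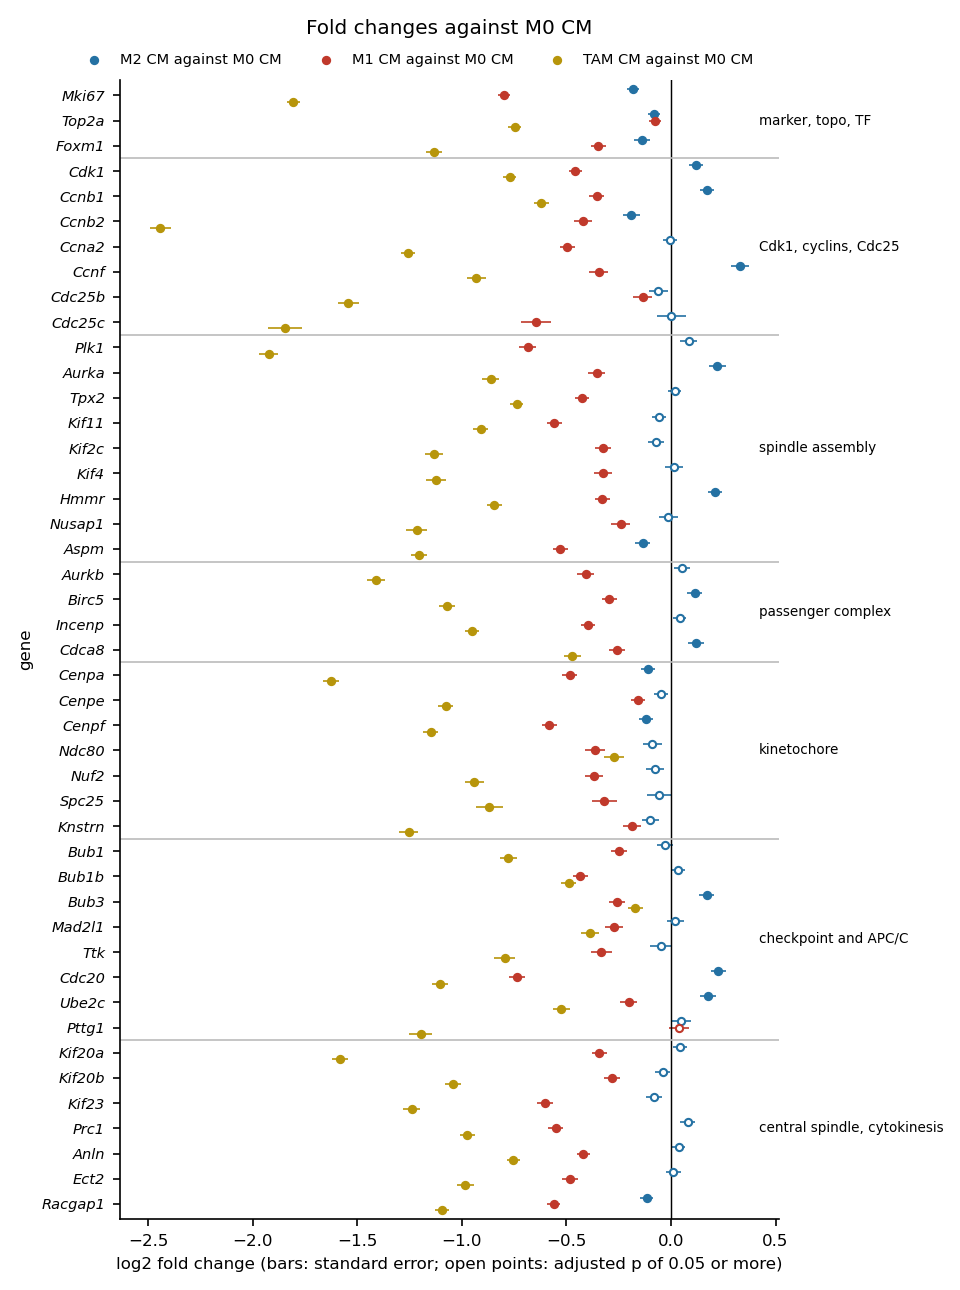
Log2 fold change against M0 CM (x axis) of each member (y axis, grouped by role) in M1 CM, M2 CM and TAM CM, with bars for the standard error and open points for an adjusted p of 0.05 or more. TAM CM points lie farthest left except for Ndc80 and Bub3, M2 CM points lie around 0, and Pttg1 has an open M1 CM point.

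TAM CM and M1 CM were also set against each other, and 42 of 45 members were lower in TAM CM, beside 34.4% of all genes, with a median of −0.57 (all genes −0.015). By at least 1.5-fold 21 were lower (16.7% of all genes) and by at least 2-fold 10 (9.33%). Ccnb2 differed most, at −2.02 ± 0.051 (adjusted p = 8.66e-36), then Cdc25b at −1.41, Kif20a at −1.24, Plk1 at −1.24 and Pttg1 at −1.24. At the other end Bub1b (−0.058, adjusted p = 0.154) and Ndc80 (0.092, adjusted p = 0.0853) did not pass the test, and Bub3 was the 1 member higher in TAM CM (0.090 ± 0.038, adjusted p = 0.0350, beside 32.8% of all genes). The Bub3 libraries of TAM CM and M1 CM overlapped. No member was higher under 4 of the other settings, nor without M1 CM replicate 2 or without TAM CM replicate 1.

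Against M2 CM, all 45 members were lower in TAM CM (34.1% of all genes), with a median of −1.03 where that of all genes was 0.005. Ccnb2 (−2.25), Plk1 (−2.01), Cdc25c (−1.85), Kif20a (−1.63) and Mki67 (−1.62) differed most and Ndc80 (−0.18) least. By at least 2-fold 25 were lower, against 8.38% of all genes. M2 CM against M1 CM gave 41 members higher and none lower (27.8% and 28.4% of all genes), with a median of 0.41. The widest gaps were at Cdc20 (0.96 ± 0.037, adjusted p = 1.78e-27), Plk1 (0.77), Ccnf (0.68) and Cdc25c (0.65), and the 4 not called were Top2a (−0.006), Pttg1 (0.009), Cdc25b (0.075) and Knstrn (0.090). Without M2 CM replicate 3 the numbers of members were again 45 lower and 41 higher.

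M1 CM against M0 CM and TAM CM against M2 CM share no library, so the members' values in them can be set side by side. Across the 45 members Pearson's r between the 2 sets of log2 fold changes was 0.352 and Spearman's rho 0.279, against 0.339 and 0.411 across all 14509 genes. By rho the order of the members within the list was thus shared only loosely and no more than that of genes at large. By r the members and all genes were close. Genes are not independent replicates and all values come from the same 12 libraries and 1 scaling.

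Medians by promoter element were compared without a test. The order of members with and without a homology region differed between TAM CM and M1 CM. In TAM CM the median was −0.95 for the 30 members with a homology region, −1.08 for the 8 without and −1.26 for the 7 with no window. In M1 CM the medians were −0.39, −0.26 and −0.41. The 8 without were Birc5, Ccnb1, Cenpe, Knstrn, Mad2l1, Nuf2, Nusap1 and Pttg1.

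Levels between genes were compared per length, as RPKM (reads scaled to exon length and library total). In M0 CM Cdc20 led at 138 RPKM, followed by Top2a (89.7), Mki67 (87.2), Ccnb2 (86.5), Racgap1 (75.6) and Ccna2 (73.1), and Cdc25c was lowest at 8.06. In TAM CM Cdc20 (64.0) and Top2a (53.4) still led, whereas Mki67 had gone to 24.9 and Ccnb2 to 15.9 RPKM, near Ect2 at 15.2 and Hmmr at 15.8. The subunits of the NDC80 complex lay close together in M0 CM, with Ndc80 at 10.9, Nuf2 at 14.6 and Spc25 at 13.4 RPKM, and in TAM CM at 8.98, 7.63 and 7.31.

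Other genes of the cell cycle were read from 7 further lists. Their counts stand beside these shares of all genes: 25.6% fell and 27.7% rose in M1 CM, 18.5% and 21.0% in M2 CM, and 34.9% and 35.1% in TAM CM. Of 40 other G2/M and spindle genes 34 fell and 1 rose in M1 CM (median −0.31), 36 fell and 1 rose in TAM CM (median −0.87), and in M2 CM 8 rose and 4 fell. Ckap2 and Wee1, a spindle protein and the kinase that restrains Cdk1, fell by 0.65 and 0.84 in M1 CM. Iqgap3 and the separase Espl1 fell by 1.46 and 1.23 in TAM CM, and in M2 CM Arhgap11a rose by 0.33 and Hjurp, the chaperone of Cenpa, fell by 0.22. Most of these genes thus fell in the media in which the members fell.

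Medians nearer 0 were found for the other mitotic lists. Of all genes, 25.6% fell and 27.7% rose in M1 CM, and 34.9% fell and 35.1% rose in TAM CM. Of 31 other kinetochore genes 14 fell and 3 rose in M1 CM (median −0.15) and 23 fell and 5 rose in TAM CM (median −0.47). Knl1, the platform for Bub1, fell by 0.37 and 0.67, Spc24, the partner of Spc25, fell by 1.33 in TAM CM, and Zwint rose by 0.27 in M1 CM. Condensin and cohesin genes gave 16 falls of 18 in M1 CM (median −0.25) and 15 falls and 2 rises in TAM CM (median −0.39), led by the condensin subunit Ncapd2 at −0.52 and −1.46. The 16 genes of the anaphase-promoting complex and its partners gave 8 falls and 2 rises in M1 CM (median −0.065) and 13 and 3 in TAM CM (median −0.32), with Anapc4 and Anapc2 at −1.01 and −0.79 in TAM CM.

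The lists of the transcription machinery and of S phase had medians closest to 0 in TAM CM. Of 20 MuvB, DREAM and E2F regulators 9 rose and 7 fell there (median 0.040), beside 35.1% and 34.9% of all genes. E2f8 was at −1.11 there and the pocket protein Rbl2 at −0.86, both named for their small p. Among the genes that rose there, Lin52 was at 1.015 and Rb1 at 0.64. In M1 CM 4 regulators rose and 9 fell (median −0.050), beside 27.7% and 25.6% of all genes. Of 30 replication genes 16 fell and 7 rose in TAM CM (median −0.13), with the ligase Lig1 at −1.25 and the helicase subunit Mcm5 at −1.01. In M1 CM 20 of these genes fell and 3 rose (median −0.23). In M2 CM 17 replication genes rose and 2 fell (median 0.13), beside 21.0% and 18.5% of all genes, with Rfc3 at 0.48 and Rrm2 at 0.30. Set directly against M1 CM, TAM CM had 16 of the 30 replication genes higher and 12 lower (median 0.16). Of all genes, 32.8% were higher and 34.4% lower in that comparison, while the mitotic members were lower in 42 of 45.

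Of 14 CDK inhibitors and G2 arrest genes 11 were tested, and Cdkn1c, Cdkn2a and Cdkn2b had 0 counts in all libraries. In M1 CM 5 rose and 5 fell, in M2 CM 5 and 4, and in TAM CM 4 and 6. Of all genes, 27.7% rose and 25.6% fell in M1 CM, 21.0% and 18.5% in M2 CM, and 35.1% and 34.9% in TAM CM. The antiproliferative gene Btg1 rose by 0.81 in M1 CM (adjusted p = 1.2e-25) and by 1.22 in TAM CM (adjusted p = 2.24e-33), and fell by 0.33 in M2 CM. The inhibitor Cdkn2d, or p19, fell by 0.50 in M1 CM, by 0.41 in M2 CM and by 2.54 in TAM CM. Cdkn1b, or p27, fell by 0.63, 0.49 and 0.96 in the same order. Ccng2, a cyclin tied to cell cycle arrest, fell by 0.76 in M2 CM and by 0.68 in TAM CM.

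**Figure D5:**
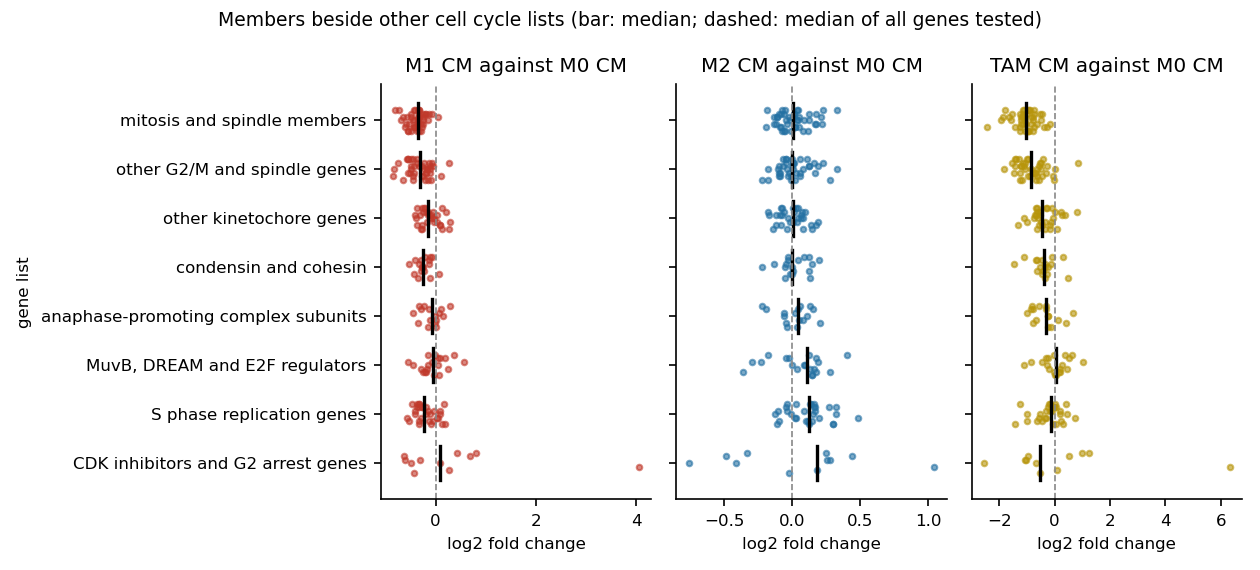
Log2 fold change (x axis) of each gene of the members' list and of 7 other cell cycle lists (y axis) in M1 CM, M2 CM and TAM CM against M0 CM, with a bar at each list's median and a dashed line at the median of all genes tested. The members' bar lies at −0.36, 0.002 and −1.04, and the S phase bar at −0.23, 0.13 and −0.13.

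Some members can share reads with another gene, since the strand setting of the counting is not stated in the submitters' notes. The exons of 8 members overlap a gene on the other strand that held over 5% as many counts as the member, with Kif20a and Cdc23 (49.9%), Kif4 and Pdzd11 (47.9%) and Cdc20 and Elovl1 (46.2%) the closest. Against M0 CM the partners moved less or the other way in TAM CM, with Cdc23 at −0.66, Elovl1 at −0.25, Rccd1 beside Prc1 at 0.90 and Exosc9 beside Ccna2 at 0.66, while Pdzd11 was at 0.080 (adjusted p = 0.257). In M2 CM Elovl1 rose by 0.36 beside the rise of 0.23 of Cdc20, and reads of these genes cannot be told apart without strand. Ndc80 has a near-identical copy, 2700099C18Rik, with 20.3% as many counts. The copy averaged 10.7 CPM in M0 CM, 17.9 in M1 CM and 12.9 in TAM CM, and rose by 0.73 in M1 CM and by 0.27 in TAM CM. The size of the fall of Ndc80 is thus uncertain in both media, and the copy rose more in M1 CM than in TAM CM. The size of the small fall of Cdca8 in TAM CM is uncertain too. Its partner on the other strand, 9930104L06Rik, had 21.1% as many counts and rose by 0.64 there.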

How the data were processed

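The deposited table holds raw read counts per Ensembl gene for 12 mRNA libraries, with no scaling by the authors. Per the submitters' processing notes, HISAT2 2.0 and genome build mm10 were used; no source used here names a counting tool, annotation release or strand setting. The labels gave the groups. Of 55487 genes, 55227 were matched by identifier to a GENCODE release M21 symbol, which also gave coordinates and exon lengths. That release may not be the authors' own.

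The tests were run with edgeR 4.0.16 under R 4.3.3 (filterByExpr, TMM, robust glmQLFit over all 12 libraries, 4 group means, glmQLFTest), with Benjamini-Hochberg adjustment over 14509 genes and a threshold of 0.05. The script was tested on simulated data. Dividing a log2 fold change by √F gave its standard error. CPM uses TMM-scaled totals. Library totals (18996937 to 22596630) set the counting error, and the lowest member count in a library was 201. Pairs of libraries within a group differed by more than sampling noise (chi-square over its degrees of freedom from 2.00 to 5.17), so none was merged.

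The members, gene lists and tests were chosen with earlier results of these data known. Every member is named. Values per library are given for a panel of well-known members and for the 2 largest rises and falls against M0 CM. Bub3 was added because it was called in opposite directions. So were Hmmr, Cdca8 and Ube2c, whose single libraries are not given. Ndc80 and Pttg1 were chosen after their values were seen. From each other list up to 2 genes of smallest p in each comparison with M0 CM are named. Lin52, Rb1 and the arrest genes under the other observations were named after their values were seen. Copies of member transcripts were searched with blastn 2.17.0 (at least 95% identity over 200 bases). Promoters come from RefSeq (GRCm38.p6). Alternatives tried were DESeq2 1.42.0, its size factors, no scaling factors, 2 other low-count filters, a fit on 2 groups alone, a replicate block, the trend on transcript length taken out, and each library left out.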

Additional observations from a re-analysis of the deposited data

How the results depend on the processing

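No member changed direction under any setting where it had been called. In TAM CM against M0 CM and against M2 CM all 45 members stayed lower under every setting run, and the leave-one-out range was 45 to 45 for both. The other leave-one-out ranges were 42 to 44 members lower in M1 CM against M0 CM, 8 to 11 higher and 6 to 8 lower in M2 CM against M0 CM, 41 to 43 lower in TAM CM against M1 CM and 41 to 42 higher in M2 CM against M1 CM. The DESeq2 Wald test gave 44 lower (M1 CM), 10 higher and 8 lower (M2 CM) and 45 lower (TAM CM). Without scaling factors 17 members were lower in M2 CM against M0 CM, beside 8. The single member higher in TAM CM against M1 CM became 0 without scaling factors, with no low-count filter, with only the 2 groups compared and with the length trend taken out. It ranged from 0 to 2 with each library left out, being 0 without M1 CM replicate 2 or TAM CM replicate 1 and 2 without TAM CM replicate 3. The cause of these shifts was not tested. The labels do not say that replicate numbers mark a shared culture or day. Deviations of same-numbered libraries had correlations from −0.052 to 0.219 over 18 pairs (median 0.042). Those of different-numbered libraries from other media ran from −0.214 to 0.091 (median −0.022). Of 12 libraries, 10 correlated best with their own number, which points to a weak shared deviation, from the data and not from the design. Since not every pair was over 0.1, the numbers were not taken as pairs. With the replicate block the counts against M0 CM were 44 lower (M1 CM), 10 higher and 8 lower (M2 CM) and 45 lower (TAM CM), 42 lower and 1 higher in TAM CM against M1 CM, 45 lower in TAM CM against M2 CM and 41 higher in M2 CM against M1 CM. Over the members, Spearman's rho between exon length and log2 fold change was −0.157 (M1 CM), −0.384 (M2 CM) and 0.176 (TAM CM), against −0.112, −0.066 and −0.00042 over all genes.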

Other observations

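Ratios of member pairs within a library do not depend on scaling, and the pairs given here were chosen after the values were seen. For each 100 counts of Ccnb1 there were 64.9, 68.1 and 67 counts of Ccnb2 in M0 CM, 68.3, 61 and 62 in M1 CM, 51.2, 52.9 and 51.6 in M2 CM and 17.6, 19 and 19.9 in TAM CM. The ratio of the B-type cyclins thus lay below every M0 CM library in each M2 CM library, and far below in TAM CM, while M1 CM overlapped M0 CM. For each 100 counts of Top2a there were 108, 108 and 109 counts of Mki67 in M0 CM, 67.2, 63.1 and 66.7 in M1 CM, 101, 99.5 and 103 in M2 CM and 52.7, 50.2 and 53.4 in TAM CM, so that this pair separated M1 CM from M0 CM. The kinases Plk1 and Aurka gave 134, 134 and 133 Plk1 counts for each 100 of Aurka in M0 CM. They gave 115, 105 and 98.2 in M1 CM, 113, 125 and 127 in M2 CM and 61.3, 64.2 and 66.5 in TAM CM. Cenpa stood at 239, 229 and 243 counts for each 100 of Ndc80 in M0 CM and 219, 216 and 220 in M1 CM. It was at 241, 225 and 236 in M2 CM and 92.2, 91.2 and 94.9 in TAM CM. Ndc80 can share reads with its near-identical copy, which limits this last ratio.

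A pair of stress-linked arrest genes moved against the members in M1 CM and TAM CM, and both were picked after their values were seen. Their list as a whole did not: of its 11 tested genes, 5 rose and 5 fell in M1 CM, and 4 rose and 6 fell in TAM CM. Cdkn1b, Cdkn2c, Cdkn2d, Gadd45g and Ccng1 fell in both media and are named here for that reason. Gadd45a, which inhibits Cdk1 with cyclin B, stood at 1.63 ± 0.30 CPM (SD, n = 3) with M0 CM, at 27.1 ± 7.19 with M1 CM, at 3.38 ± 0.40 with M2 CM and at 131 ± 8.06 with TAM CM. Its log2 fold changes were 4.05 in M1 CM (adjusted p = 1.56e-06) and 6.32 in TAM CM (adjusted p = 5.46e-09), and the 1.05 in M2 CM was not called (adjusted p = 0.0887). Cdkn1a, or p21, stood at 111 ± 9.52 CPM with M0 CM, at 150 ± 17.4 with M1 CM, at 132 ± 4.19 with M2 CM and at 224 ± 3.83 with TAM CM, and rose by 0.43 (adjusted p = 0.00193), 0.25 (adjusted p = 0.0485) and 1.01 (adjusted p = 2.29e-06). Whether these genes have a part in the members' levels was not tested.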
